A study of Mus musculus with 8 samples.

Results

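The nuclear genes for respiratory complexes II, III, IV and V and for cytochrome c were described in epididymal white adipose tissue. Members were the genes with the exact symbols Sdha, Sdhb, Sdhc, Sdhd, Cyc1 or Cycs and all genes whose symbol begins with Uqcr, with Cox4 to Cox8 followed by a letter, or with Atp5, which gave 47 of the 18691 genes in the files. Of these, 4 belonged to complex II, 9 to complex III, 1 was cytochrome c, 16 to complex IV by name and 17 to complex V by name. The members Cox7a2l, Atp5s and Atp5sl match by name but are no subunits, so they were kept out of the values per complex. The tissue came from C57BL/6J mice aged 16 weeks, with 4 libraries labelled Mrp4 knockout (Mrp4-/-; numbered 1, 2, 4 and 5) and 4 labelled wild type (WT; numbered 1 to 4). Both groups shared strain, tissue and age, no treatment is given, and the labels do not say how the Mrp4 allele was made. Whether the libraries stem from different mice is not given either, and the p-values below speak of the spread among these 8 libraries alone. Polyadenylated RNA was sequenced, with expected counts summing to between 14064681 and 14700114 per library labelled Mrp4 knockout and between 14318943 and 14610104 per WT library. Abcc4, which encodes the efflux transporter Mrp4, was no lower under the knockout label, at 3.6 ± 0.244 FPKM against 3.52 ± 0.232 FPKM in WT libraries (SD, n = 4 each; log2 fold change -0.05, 95% interval -0.23 to 0.13, edgeR adjusted p = 0.692). The groups are therefore called by their labels.

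Complex II (succinate dehydrogenase) passes electrons from succinate to coenzyme Q, complex III (the cytochrome bc1 complex) passes them to cytochrome c, and complex IV (cytochrome c oxidase) passes them to oxygen. Complexes III and IV pump protons, and complex V (ATP synthase) uses the proton gradient to make ATP. In white fat cells mitochondria supply ATP and carbon for building and releasing triglyceride. Complexes III, IV and V also hold subunits encoded by mitochondrial DNA. Of 26 symbols searched for mitochondrial respiratory genes, 0 were in the files, so these genes could not be analysed here.

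The promoters of these genes are known to hold sites for the factor NRF1 and for GABP, a factor of the ETS family. RefSeq promoters of 300 bases (250 before and 50 after the start site, build GRCm38.p6) were matched for 37 of the 47 members. The stretch from 100 bases before to 10 bases after the start site is printed for the members whose fall was called whichever library was left out (Uqcr11, Cox7c, Cox8a and Atp5g2), for Sdha, which had the lowest p of complex II, and for Atp5k, which did not pass the test. Each is read 5′ to 3′ along its gene, and capitals mark exact matches on either strand to the NRF1 letters, GCGCA followed by any base and GCGC, or to the ETS letters CCGGAAG.
Sdha, chr13:74350231-74350340, minus strand: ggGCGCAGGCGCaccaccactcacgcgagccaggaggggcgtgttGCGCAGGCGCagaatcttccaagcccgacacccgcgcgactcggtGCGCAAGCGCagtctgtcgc
Uqcr11, chr10:80406812-80406921, minus strand: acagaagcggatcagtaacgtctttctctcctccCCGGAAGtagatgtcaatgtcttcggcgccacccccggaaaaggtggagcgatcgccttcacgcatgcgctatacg
Cox7c, chr13:86046786-86046895, minus strand: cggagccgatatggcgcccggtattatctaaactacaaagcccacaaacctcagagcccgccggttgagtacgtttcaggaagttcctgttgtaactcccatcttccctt
Cox8a, chr19:7217607-7217716, minus strand: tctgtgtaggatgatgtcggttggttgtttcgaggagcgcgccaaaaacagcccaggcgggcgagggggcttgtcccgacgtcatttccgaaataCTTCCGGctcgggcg
Atp5g2, chr15:102671038-102671147, minus strand: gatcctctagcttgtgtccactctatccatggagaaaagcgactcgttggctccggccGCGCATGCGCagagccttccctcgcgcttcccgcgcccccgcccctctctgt
Atp5k, chr5:108434390-108434499, minus strand: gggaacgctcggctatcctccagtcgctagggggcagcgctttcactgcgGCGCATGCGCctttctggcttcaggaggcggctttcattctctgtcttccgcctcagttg
Of these windows, Sdha held the NRF1 letters at 3 places, Atp5g2 and Atp5k at 1 place each, Uqcr11 and Cox8a held the ETS letters at 1 place each, and Cox7c held neither. Over the whole promoters, the NRF1 letters stood in 10 of 37 members (27.0%), against 10.6% of the 11232 other tested genes with a promoter and 5.19% of all 27025 genes. CCGGAAG stood in 12 of 37 members (32.4%), against 18.4% of the other tested genes and 9.93% of all genes. Among members that fell and members that were tested and did not pass, the NRF1 letters stood in 4 of 16 and in 6 of 21, and the ETS letters in 5 of 16 and in 7 of 21. With T as the free base they stood in 4 members. The YY1 letters AAGATGGC stood in 4 of 37 members (10.8%), against 4.85% of the other tested genes and 3.19% of all genes. CCAAT stood in 21 of 37 members (56.8%), against 42.5% and 41.1%, and GGGCGG, the letters of SP factors, stood in 14 (37.8%), against 66.3% and 38.2%. The ERR letters TCAAGGTCA stood in 2 of 37 members (5.41%), against 0.285% of the other tested genes and 0.466% of all genes. Their last 7 letters, AAGGTCA, stood in 5 of 37 members (13.5%), against 4.05% and 5.38%. Those 5 were among the 21 members that did not pass, and 0 of the 16 that fell held them. The YY1 letters went the other way, in 3 of the 16 that fell and 1 of the 21 that did not pass. Both splits stood out among the motifs matched, and neither was tested. A match of letters is a description and not a bound site.

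Subunits of all 4 complexes fell, and over the 40 subunits with a WT mean of at least 20 FPKM (fragments per kilobase of transcript, scaled to depth) the median change was -21.3%. Of the 46 members tested, 21 fell, 0 rose and 25 did not pass, at an edgeR adjusted p under 0.05. Over all 14257 genes tested, 8.05% fell and 10.2% rose. Most subunits are highly expressed, and of the 3569 tested genes with a WT mean of at least 20 FPKM, 17.5% fell. Of the 40 subunits at that level, cytochrome c included, 21 fell. Their median log2 fold change, knockout label over WT, was -0.34, against -0.08 for all tested genes at that level and -0.00 for all genes tested. In all, 41 of the 46 members had a fold change below 0. The libraries labelled Mrp4 knockout lay wholly below the WT libraries in FPKM for 16 of the 46 members, against 7.08% of all tested genes and 14.4% of those with a WT mean of at least 20 FPKM. In bulk tissue, fewer cells of a type and less RNA per cell cannot be told apart.

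**Figure D1:**
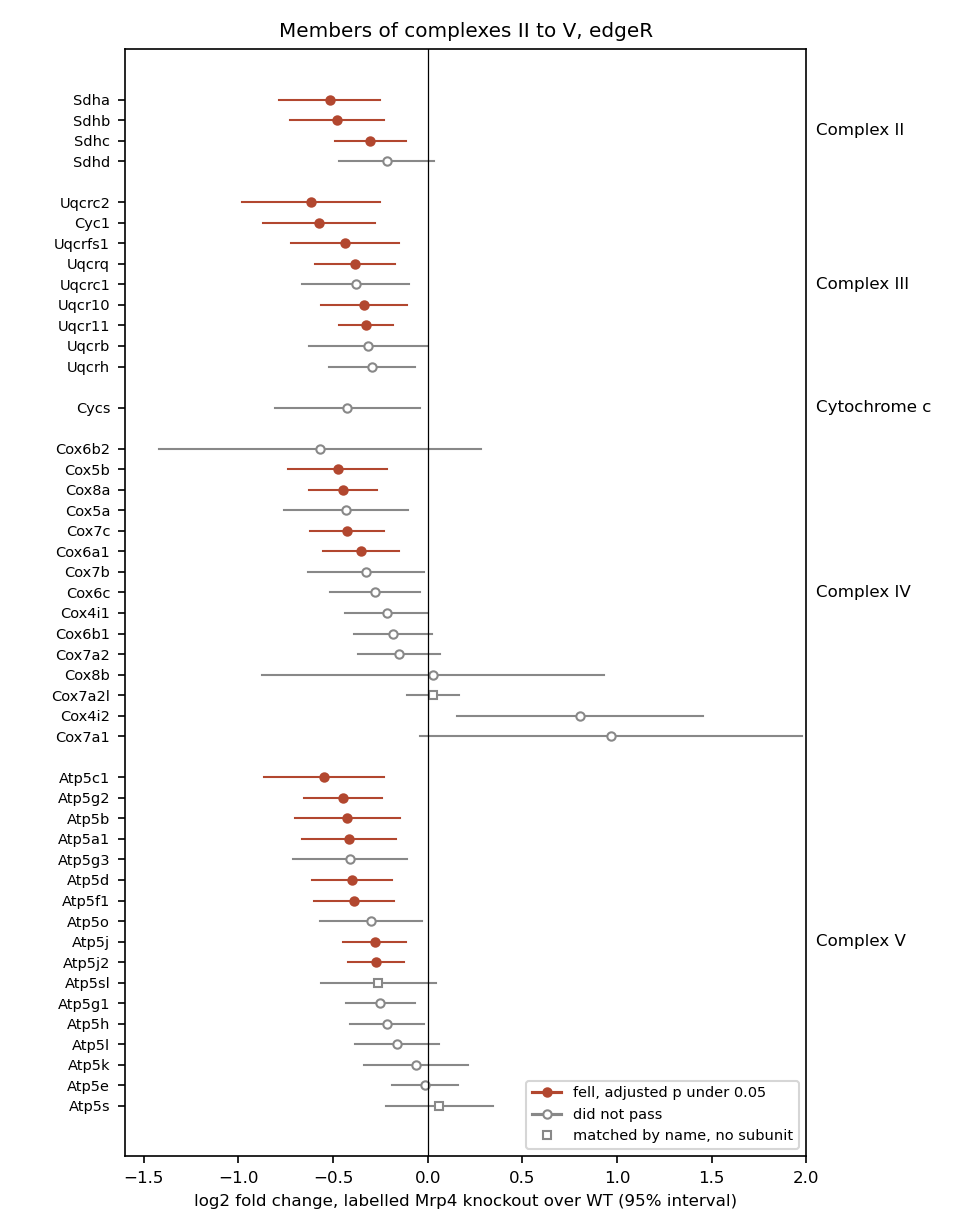
The log2 fold change (x axis, libraries labelled Mrp4 knockout over WT) is drawn with its 95% interval, unadjusted for the number of genes, for the 46 members tested (y axis), grouped by complex. Filled circles are members that fell at an adjusted p under 0.05, open circles subunits that did not pass, and squares members that match by name but are no subunits; the filled circles lie between -0.62 and -0.27.

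The share of subunits that fell was 3 of 4 in complex II, 6 of 9 in complex III, 4 of 14 tested in complex IV and 8 of 15 in complex V. The median log2 fold change was -0.39 in complex II, -0.38 in complex III, -0.30 in complex IV and -0.30 in complex V. Among the 11 complex IV subunits with a WT mean of at least 20 FPKM, the median was -0.33. The difference between complexes was not tested. The SD between libraries was 0.118 to 0.145 on the log2 scale by complex. The complexes shared most of that spread, so it does not measure a difference between them.

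Complex II consists of 2 catalytic subunits and 2 membrane anchors, all nuclear. Sdha (gene 66945), the flavoprotein that oxidises succinate, had 121, 122, 115 and 131 FPKM in libraries labelled Mrp4 knockout, against 189, 136, 158 and 186 FPKM in WT libraries. All libraries labelled Mrp4 knockout were below all WT libraries, and the mean was 122 ± 6.26 FPKM against 167 ± 25.2 FPKM (SD, n = 4 each). Sdha thus had a log2 fold change of -0.52 ± 0.12 (SE; adjusted p = 0.0197), and the adjusted p rose to at most 0.0564 without knockout library 4 or WT library 4, where the call was lost. Sdhb (gene 67680), the iron-sulfur subunit, had 100.2, 94.8, 87.9 and 104 FPKM in libraries labelled Mrp4 knockout, against 147, 105, 127 and 137 FPKM in WT libraries. These groups did not overlap, although the highest knockout library and the lowest WT library lay about 1 FPKM apart. Sdhb fell by 0.48 ± 0.11 on the log2 scale (adjusted p = 0.0204), a call lost without knockout library 2 or 4 or WT library 4 (adjusted p up to 0.0592).

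Sdhc (gene 66052), the larger membrane anchor, had 144, 127, 132 and 151 FPKM in libraries labelled Mrp4 knockout, against 175, 161, 150.3 and 169 FPKM in WT libraries. Here knockout library 5 was level with WT library 3, and the groups overlapped. The log2 fold change of -0.30 ± 0.08 passed (adjusted p = 0.036), and stayed past the threshold only without knockout library 5, WT library 2 or WT library 3 (adjusted p up to 0.0938 in the other cases). Sdhd (gene 66925), the anchor that helps bind coenzyme Q, had 66.4, 65.4, 66.2 and 76.7 FPKM in libraries labelled Mrp4 knockout, against 88.7, 70.2, 65.1 and 81.8 FPKM in WT libraries. Its groups overlapped, with WT library 3 the lowest of all 8. Sdhd did not pass, with a log2 fold change of -0.22 and a 95% interval of -0.47 to 0.03 (adjusted p = 0.191), an interval that includes the medians of complexes II and III.

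In complex III both redox subunits fell, as did 1 of the 2 core proteins and 3 of the 5 small subunits. Cyc1 (gene 66445), the haem protein cytochrome c1, had 119, 118, 108 and 133 FPKM in libraries labelled Mrp4 knockout, against 208, 137, 159 and 178 FPKM in WT libraries. The groups did not overlap, and Cyc1 fell by 0.57 ± 0.13 on the log2 scale (adjusted p = 0.0201). That call was lost without knockout library 4 or WT library 4 (adjusted p up to 0.0574). Uqcrfs1 (gene 66694), the Rieske iron-sulfur protein, had 87.5, 82.5, 80.8 and 97.7 FPKM in libraries labelled Mrp4 knockout, against 137, 93.4, 103 and 118 FPKM in WT libraries. Knockout library 5 lay above WT library 2, so the groups overlapped. Uqcrfs1 fell by 0.44 ± 0.13 on the log2 scale (adjusted p = 0.041), a call kept only without knockout library 5 or WT library 2 among the 8 leave-outs (adjusted p up to 0.103).

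Uqcrc2 (gene 67003), a core protein on the matrix side, had the largest fall of any member. Its level was 71.2, 69.3, 66.8 and 81.5 FPKM in libraries labelled Mrp4 knockout, against 124, 77.7, 94.2 and 128 FPKM in WT libraries. The groups overlapped at knockout library 5 and WT library 2, and WT itself spanned from 77.7 to 128 FPKM. The log2 fold change was -0.62 ± 0.16 (adjusted p = 0.0316), and the call was kept only without knockout library 5, WT library 2 or WT library 3 (adjusted p up to 0.0804). Its partner core protein Uqcrc1 averaged 108 ± 11.0 FPKM against 134 ± 20.4 FPKM in WT libraries and did not pass (log2 fold change -0.38, adjusted p = 0.0622, or 0.0198 without WT library 2).

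Uqcr11 (gene 66594), a small membrane subunit, differed less in size than Uqcrc2 but with a tighter spread. It had 241, 228, 234 and 239 FPKM in libraries labelled Mrp4 knockout, against 309.5, 270.5, 289 and 274 FPKM in WT libraries. Every library labelled Mrp4 knockout was below every WT library. Uqcr11 fell by 0.33 ± 0.06 on the log2 scale (adjusted p = 0.0116), and the adjusted p was at most 0.0365 with any library left out. Uqcrq (gene 22272), another small subunit, had 205, 196, 197 and 215 FPKM in libraries labelled Mrp4 knockout, against 301, 226, 244 and 254 FPKM in WT libraries. Again the groups did not overlap. Uqcrq fell by 0.39 ± 0.09 on the log2 scale (adjusted p = 0.0249), a call lost without knockout library 1, 2 or 4 or WT library 4 (adjusted p up to 0.0667). Uqcr10, a small subunit as well, fell by 0.34 ± 0.10 (adjusted p = 0.048) with overlapping groups, a call kept only without knockout library 5 or WT library 2 (adjusted p up to 0.116). The small subunits Uqcrh and Uqcrb had log2 fold changes of -0.29 and -0.32 and did not pass.

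Cycs (gene 13063), the mobile electron carrier cytochrome c, had 33.8, 29.0, 35.5 and 44.4 FPKM in libraries labelled Mrp4 knockout, against 56.5, 39.4, 37.2 and 49.95 FPKM in WT libraries. The groups overlapped, and knockout library 5 lay above WT libraries 2 and 3. The log2 fold change of -0.42 ± 0.17 did not pass (95% interval -0.81 to -0.04 before adjustment, adjusted p = 0.11), and it passed in 0 of the 8 leave-outs. Cycs was the only member with expected counts that were not whole numbers in all 8 libraries, which occurs where reads are shared with near-identical copies, so its level is uncertain.

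**Figure D2:**
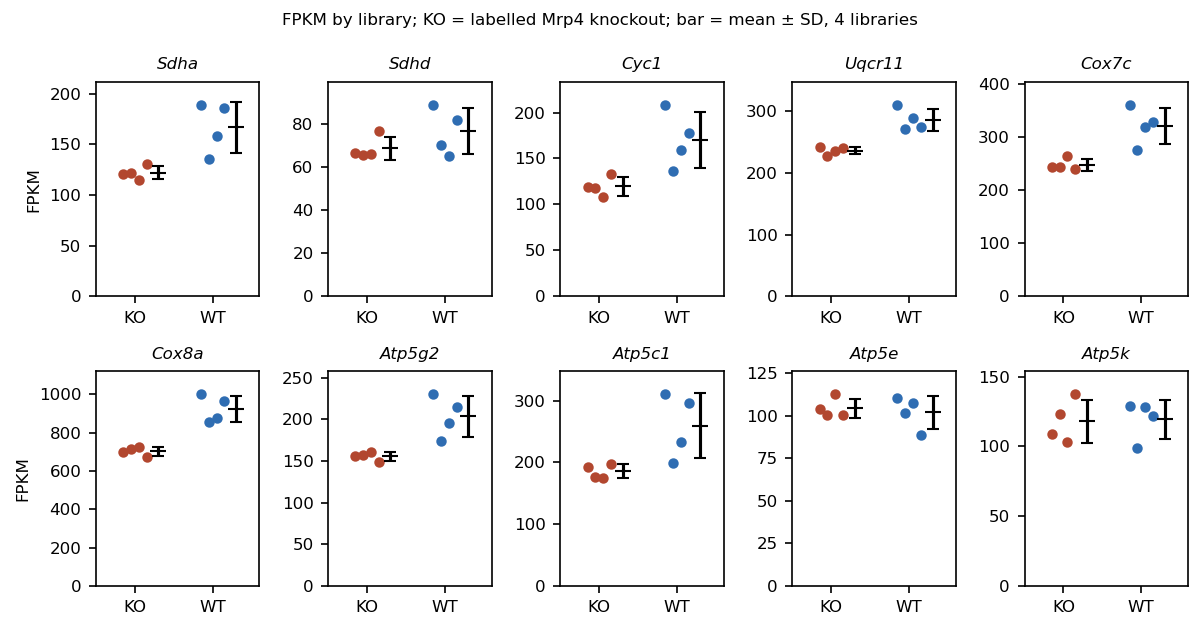
FPKM (y axis, from 0) of 10 members in each library, with the libraries labelled Mrp4 knockout (KO, red) left of WT (blue); points run in library number order and bars are mean ± SD over 4 libraries. The groups are apart for Sdha, Cyc1, Uqcr11, Cox7c, Cox8a and Atp5g2, narrowly apart for Atp5c1 (198 against 199 FPKM), and overlap for Sdhd, Atp5e and Atp5k.

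Complex IV held the member with the highest level and the lowest p. Cox8a (gene 12868), a small subunit in its widely expressed form, had 696, 715, 725 and 673 FPKM in libraries labelled Mrp4 knockout, against 999, 854, 874 and 962 FPKM in WT libraries. A gap of more than 100 FPKM lay between the groups. The mean was 702 ± 23.0 FPKM against 922 ± 69.2 FPKM in WT libraries (SD, n = 4 each), a log2 fold change of -0.45 ± 0.08 (adjusted p = 0.00834, at most 0.0284 with any library left out). Cox7c (gene 12867), a small subunit with a single form, had 244, 243, 264 and 240.0 FPKM in libraries labelled Mrp4 knockout, against 361, 277, 319 and 328 FPKM in WT libraries. Its groups did not overlap either. Cox7c fell by 0.43 ± 0.09 on the log2 scale (adjusted p = 0.0137, at most 0.0406 with any library left out).

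Cox5b (gene 12859), which binds zinc on the matrix side, had 180.0, 186, 181 and 200.4 FPKM in libraries labelled Mrp4 knockout, against 295, 200.2, 240.4 and 264 FPKM in WT libraries. Knockout library 5 and WT library 2 were level, and the other libraries were apart. Cox5b fell by 0.48 ± 0.12 on the log2 scale (adjusted p = 0.0252), a call kept only without knockout library 5, WT library 2 or WT library 3 (adjusted p up to 0.0675). Cox6a1 (gene 12861), a widely expressed regulatory subunit, had 537, 543, 533 and 584 FPKM in libraries labelled Mrp4 knockout, against 718, 622, 627 and 739 FPKM in WT libraries. No knockout library reached the lowest WT library. It fell by 0.35 ± 0.09 on the log2 scale (adjusted p = 0.0272), with the call kept in the same 3 leave-outs as for Cox5b (adjusted p up to 0.0727). Cox5a (gene 12858), a subunit that binds thyroid hormone, had 98.6, 93.0, 97.8 and 109 FPKM in libraries labelled Mrp4 knockout, against 161, 98.1, 119 and 138 FPKM in WT libraries. WT library 2 lay among the knockout libraries for this gene. Its log2 fold change of -0.43 did not pass (adjusted p = 0.0671, or 0.00897 without WT library 2). Cox6c and Cox7b, with log2 fold changes of -0.28 and -0.33, did not pass either.

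Complex IV has paired subunits, with a widely expressed form and a form known from heart, skeletal muscle, brown fat, lung or testis, and 0 of the 4 tissue forms tested passed. Cox4i1, the common form of the largest nuclear subunit, had 366, 394, 352 and 416 FPKM in libraries labelled Mrp4 knockout, against 469.9, 377, 408 and 453 FPKM in WT libraries. The groups overlapped and the log2 fold change was -0.22 (adjusted p = 0.146, or 0.0492 without WT library 2). Cox4i2, its lung and hypoxia-linked form, had 6.64, 7.47, 3.54 and 5.56 FPKM in libraries labelled Mrp4 knockout, against 2.67, 4.46, 3.67 and 1.97 FPKM in WT libraries. Of the libraries labelled Mrp4 knockout, 3 were above all WT libraries and library 4 was not. The log2 fold change was 0.80 ± 0.29, from 35 to 74 counts per knockout library and 19 to 43 per WT library, and it did not pass (adjusted p = 0.0802, or 0.0437 without WT library 2).

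Cox7a1, the heart, muscle and brown fat form, had 4.26, 2.4, 3.83 and 5.38 FPKM in libraries labelled Mrp4 knockout, against 2.26, 3.74, 1.02 and 0.83 FPKM in WT libraries. The groups overlapped, on 12 to 26 counts per knockout library and 4 to 18 per WT library. Its log2 fold change of 0.97 had a 95% interval of -0.04 to 1.98 and did not pass (adjusted p = 0.155, or 0.0404 without WT library 2). Cox7a2, the common form, had 90.5, 80.05, 83.95 and 84.6 FPKM in libraries labelled Mrp4 knockout, against 94.95, 76.1, 88.9 and 102 FPKM in WT libraries. These overlapped, with a log2 fold change of -0.15 (95% interval -0.37 to 0.06, adjusted p = 0.289). Cox8b, the brown fat and muscle form, had 21.3, 13.4, 30.1 and 39.4 FPKM in libraries labelled Mrp4 knockout, against 42.8, 13.7, 18.2 and 24.2 FPKM in WT libraries. It varied about 3-fold within each group, and its log2 fold change of 0.03 had a 95% interval of -0.87 to 0.93 (adjusted p = 0.968) and changed sign in 4 leave-outs and with the replicate number as a block.

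Cox6b1 had 346, 322, 329 and 396 FPKM in libraries labelled Mrp4 knockout, against 420.4, 350.5, 382 and 374 FPKM in WT libraries. Its log2 fold change of -0.18 did not pass (adjusted p = 0.186). Cox6b2, the testis form, had 1.58, 2.03, 2.47 and 2.55 FPKM in libraries labelled Mrp4 knockout, against 3.7, 1.83, 5.08 and 1.79 FPKM in WT libraries. WT libraries 1 and 3 were above the other 6, and the fold change did not pass (log2 fold change -0.57, adjusted p = 0.313). Cox6a2, the muscle form, had 0.11, 0.44, 0.22 and 0.34 FPKM in libraries labelled Mrp4 knockout, against 0.22, 0.11, 0 and 0.22 FPKM in WT libraries. At 1 to 4 counts per knockout library and 0 to 2 per WT library, it was the only member below the filter and was not tested. Cox7a2l, an assembly factor that joins complexes III and IV into supercomplexes, averaged 100.0 ± 5.6 FPKM against 93.9 ± 1.87 FPKM in WT libraries and did not pass (log2 fold change 0.03, 95% interval -0.11 to 0.17).

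**Figure D3:**
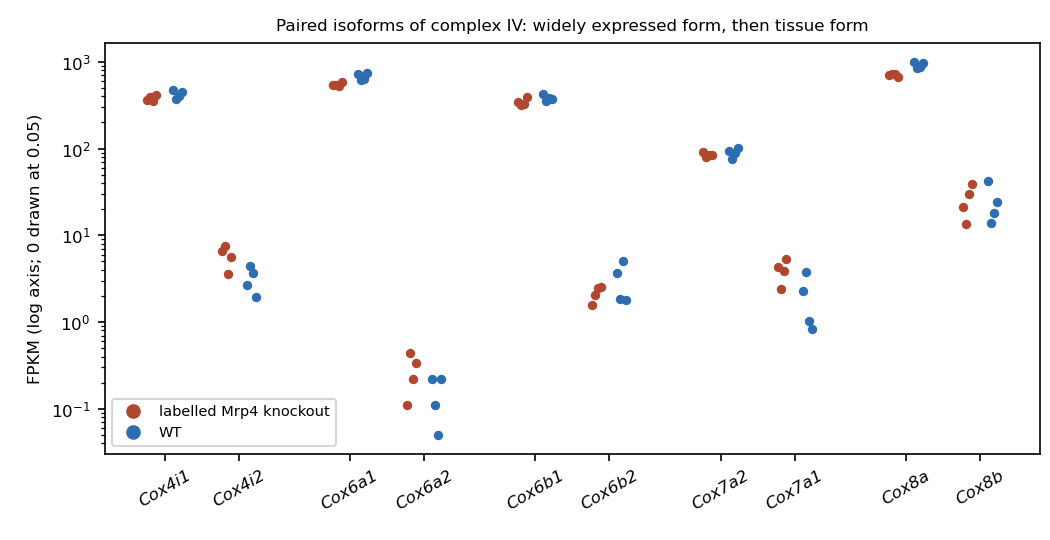
FPKM (y axis, log scale, 0 drawn at 0.05) of the 5 paired complex IV subunits in each library, with the libraries labelled Mrp4 knockout (red) left of WT (blue); the widely expressed form stands first in each pair. The widely expressed forms lie between 76.1 and 999 FPKM and the tissue forms at or below 42.8 FPKM in every library.

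Complex V has a soluble F1 head that makes ATP, a stalk that holds the head still and a rotating ring of c subunits in the membrane. Of the 5 subunits of the head and its central shaft, 4 fell. Atp5a1, the alpha subunit, fell by 0.42 ± 0.11 on the log2 scale (adjusted p = 0.0317). Atp5b (gene 11947), the catalytic beta subunit, averaged 621 ± 54.2 FPKM against 796 ± 102 FPKM in WT libraries and fell by 0.42 ± 0.12 (adjusted p = 0.0428). Both of these calls were kept only without knockout library 5 or WT library 2 (adjusted p up to 0.0825 for Atp5a1 and 0.109 for Atp5b).

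Atp5c1 (gene 11949), the gamma subunit that turns inside the head, had 193, 177, 174 and 198 FPKM in libraries labelled Mrp4 knockout, against 310.1, 199, 234 and 296 FPKM in WT libraries. The groups lay apart by about 1 FPKM, between knockout library 5 and WT library 2. Atp5c1 had the largest fall of complex V, 0.55 ± 0.14 on the log2 scale (adjusted p = 0.0303), kept only without WT library 2 or 3 (adjusted p up to 0.0784). Atp5d (gene 66043), the delta subunit of the shaft, had 228, 224, 216 and 213 FPKM in libraries labelled Mrp4 knockout, against 329, 247, 262 and 275 FPKM in WT libraries. All WT libraries were the higher ones. Atp5d fell by 0.40 ± 0.09 on the log2 scale (adjusted p = 0.0218), a call lost without knockout library 4 or 5 or WT library 4 (adjusted p up to 0.0589).

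Atp5e (gene 67126), the epsilon subunit of the same shaft, had 104, 100.4, 113 and 100.4 FPKM in libraries labelled Mrp4 knockout, against 111, 102, 108 and 88.8 FPKM in WT libraries. The groups overlapped almost fully. Its log2 fold change was -0.02 with a 95% interval of -0.19 to 0.16 (adjusted p = 0.912), and the median of complex V was -0.30. Atp5e had the change nearest 0 in complex V and was named after its value was seen. That its interval leaves out the median does therefore not set it apart. The sign of Atp5e turned with library size alone (0.052), with the FPKM tests, with the replicate block and in 3 leave-outs. Atp5k (gene 11958), the e subunit at the membrane where synthase dimers form, had 109, 123, 103 and 137 FPKM in libraries labelled Mrp4 knockout, against 129, 99.1, 128 and 122 FPKM in WT libraries. It did not pass (log2 fold change -0.06, 95% interval -0.34 to 0.21, adjusted p = 0.755). Its sign turned with library size alone (0.0071) and without knockout library 4 (0.0054).

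The c ring is built from 1 mature protein made by 3 genes. Atp5g2 (gene 67942) had 156, 157, 161 and 148 FPKM in libraries labelled Mrp4 knockout, against 229.8, 174, 195 and 215 FPKM in WT libraries. The groups did not overlap, and Atp5g2 fell by 0.45 ± 0.09 on the log2 scale (adjusted p = 0.0137, at most 0.0408 with any library left out). Atp5g3 (gene 228033) had 258, 266, 248 and 276 FPKM in libraries labelled Mrp4 knockout, against 418, 276, 285 and 358 FPKM in WT libraries. The groups were apart by less than 1 FPKM, between knockout library 5 and WT library 2, and the log2 fold change of -0.41 did not pass (adjusted p = 0.0601, or 0.0182 without WT library 2). Atp5g1 (gene 11951) had 51.8, 59.0, 49.4 and 55.2 FPKM in libraries labelled Mrp4 knockout, against 62.5, 58.5, 58.4 and 66.6 FPKM in WT libraries. The groups overlapped at knockout library 2, and the log2 fold change of -0.25 did not pass (adjusted p = 0.0609, or 0.0399 without WT library 2). Thus the fold changes of the 3 copies were all below 0, and only that of Atp5g2 passed.

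Of the 4 stalk subunits, Atp5f1 and Atp5j fell. Atp5f1 (gene 11950), the b subunit, had 91.7, 88.3, 93.1 and 93.2 FPKM in libraries labelled Mrp4 knockout, against 134, 102, 106 and 117 FPKM in WT libraries. Knockout libraries clustered within 5 FPKM, all below WT. It fell by 0.39 ± 0.09 on the log2 scale (adjusted p = 0.0237), a call lost without knockout library 1, 2 or 4 or WT library 4 (adjusted p up to 0.0618). Atp5j, coupling factor 6, fell by 0.28 ± 0.07 (adjusted p = 0.0319), a call kept only without WT library 2 (adjusted p up to 0.0824). The other stalk subunits, Atp5o, which links the stalk to the head, and Atp5h had log2 fold changes of -0.30 and -0.22 and did not pass. Atp5j2 (gene 57423), the f subunit in the membrane, had 192, 185, 182 and 180.2 FPKM in libraries labelled Mrp4 knockout, against 234, 202, 224 and 202 FPKM in WT libraries. Those groups did not overlap either. Atp5j2 fell by 0.27 ± 0.07 on the log2 scale (adjusted p = 0.0233), a call kept only without knockout library 1, WT library 2 or WT library 4 (adjusted p up to 0.0631). Atp5l, the g subunit beside it, did not pass (log2 fold change -0.16). The members Atp5s and Atp5sl, named after the synthase but no subunits of it, did not pass, with log2 fold changes of 0.06 and -0.26.

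The libraries of each group kept much the same order over the subunits. As a share of each gene's WT mean, the median over the 40 subunits was 80.9%, 77.6%, 80.3% and 86.5% in libraries 1, 2, 4 and 5 labelled Mrp4 knockout, against 114%, 85.9%, 94.5% and 106% in WT libraries 1 to 4. By this median knockout library 5 was level with WT library 2, and the other libraries were apart. WT library 1 was the highest of all 8 for 33 of the 40 subunits, and WT library 2 the lowest of its group for 34 of 40. Knockout library 5 was the highest of its group for 28 of 40. Over the genes above a minimum total count, the raw counts of WT library 2 differed from those of the libraries labelled Mrp4 knockout. The chi-square per degree of freedom was 21.4 to 32.4, against 63.2, 18.3 and 34.0 from WT libraries 1, 3 and 4. By this measure WT library 2 was nearer to the knockout libraries than to WT library 1 or 4, and nearest to WT library 3. The spread was wider in WT, where the relative SD of a subunit had a median of 12.8%, against 5.68% in the libraries labelled Mrp4 knockout, and it was the larger for 35 of 40 subunits. Since the subunits moved together by library, these are not 35 separate results. The same spread was not computed over all genes. All members together took 0.615% to 0.695% of the expected counts in the libraries labelled Mrp4 knockout and 0.691% to 0.910% in WT libraries.

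**Figure D4:**
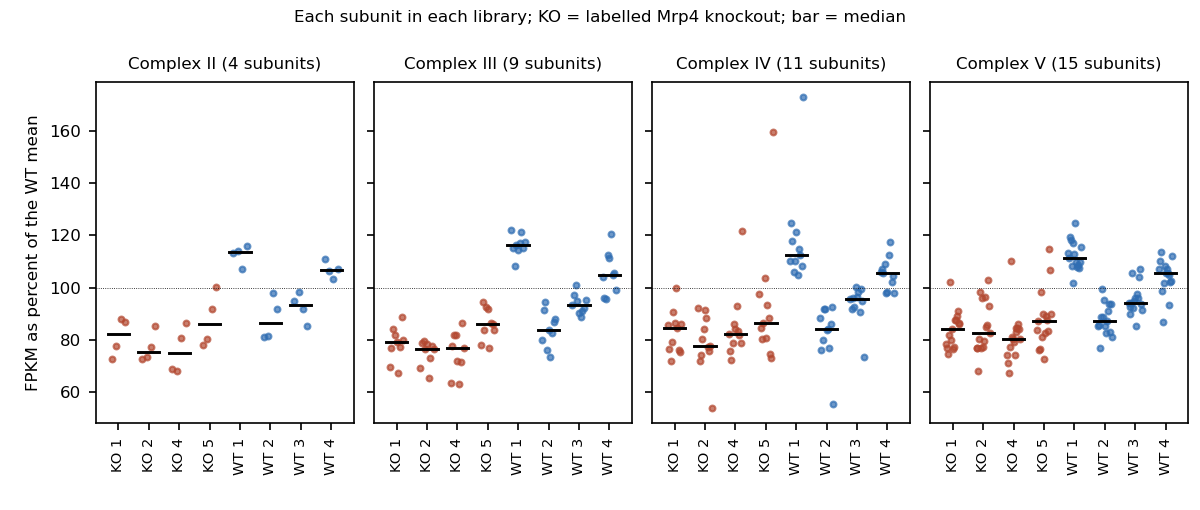
FPKM of each subunit with a WT mean of at least 20 FPKM as a percent of its WT mean (y axis) in each library (x axis), one panel per complex; the libraries labelled Mrp4 knockout (KO, red) stand left of WT (blue) and bars are medians. In each complex WT library 1 has the highest median (111% to 116%), and WT library 2 (83.9% to 87.4%) lies at the level of knockout library 5 (86.0% to 87.3%).

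The number of calls depended on single libraries. Without WT library 2, 33 members fell (11.8% of all genes tested then fell) and 2, Cox4i2 and Cox7a1, rose. Without WT library 4, 5 members fell (3.13% of all genes tested), and without WT library 1 it was 10 (4.0%) and without WT library 3 it was 15 (4.17%). Without knockout library 4, 4 members fell (3.66% of all genes tested). Without knockout library 1 it was 9 (3.76%), without knockout library 2 it was 7 (4.48%) and without knockout library 5 it was 17 (3.85%). The 4 members that fell in every leave-out were Uqcr11, Cox7c, Cox8a and Atp5g2, 1 small subunit of complex III, 2 of complex IV and 1 copy of the c ring. How many of all tested genes fell in every leave-out was not counted, so no background share stands beside this number. Each leave-out compared 7 libraries.

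**Figure D5:**
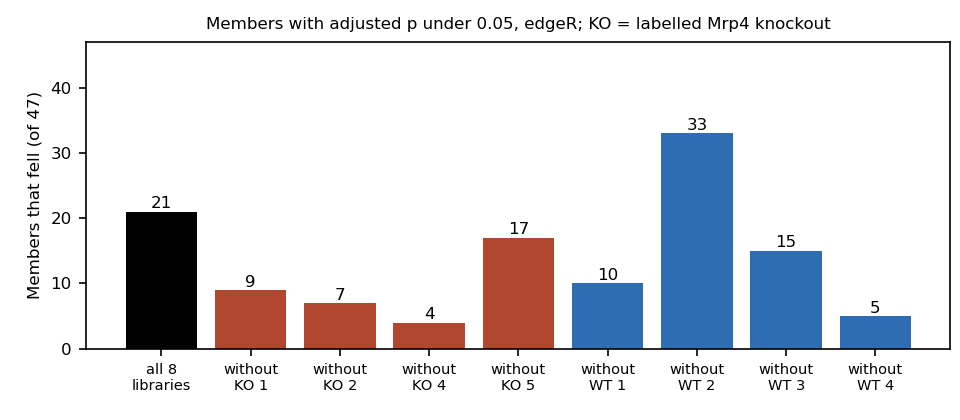
Number of members that fell at an adjusted p under 0.05 (y axis, of 47) with all 8 libraries and with each library left out in turn (x axis; KO, red, is labelled Mrp4 knockout, WT is blue). The count is 21 with all libraries, 4 without knockout library 4, 5 without WT library 4 and 33 without WT library 2.

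The calls also depended on whether the replicate number was added to the model as a block. In that fit 0 members fell, against 0.217% of all genes. The 3 numbers that both groups share are not explained in the labels. WT library 3 and knockout library 5 have no partner by number and do not enter that contrast. Few libraries are then left to measure the spread. The medians of complexes II to V were -0.46, -0.44, -0.31 and -0.37 in that fit, no nearer 0 than without the block. Of the other settings, 21 members fell with DESeq2 size factors (8.0% of all genes), with limma-voom (7.67%) and without a filter (5.72%), and 25 with the DESeq2 test (10.7%). The count was 15 with library size alone (4.77%), 15 with limma on log2(FPKM + 1) (4.71%) or on log2(FPKM + 0.1) (4.78%), and 8 with log2(FPKM + 1) and no filter (2.65%).

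Lists of genes that build or serve these complexes are given by their counts, beside the 8.05% of all tested genes that fell and the 17.5% at 20 FPKM or more; the lists were not compared by a test. Of 37 nuclear complex I subunits, 17 fell, 0 rose and the median log2 fold change was -0.32, so complex I lay among the other complexes. Ndufs7, an iron-sulfur subunit of complex I, fell by 0.61, Ndufc2 by 0.42 and Ndufb8 by 0.39, the 3 with the lowest p, each called in all 8 leave-outs. The complex I list includes Ndufa4, now counted to complex IV, which did not pass (log2 fold change -0.19). Of 8 assembly factors of complexes II, III and V, 3 fell with a list median of -0.24. Bcs1l, which inserts the Rieske protein into complex III, averaged 6.71 ± 0.717 FPKM against 10.5 ± 1.86 FPKM in WT libraries and fell by 0.71 on the log2 scale (adjusted p = 0.0143, called in all 8 leave-outs). The ATP synthase factors Atpaf2 and Tmem70 fell by 0.28 and 0.30, called in 2 and 1 of the 8 leave-outs. Of 19 genes listed for complex IV assembly and copper delivery, 3 fell with a list median of -0.15. They were Pet112 at -0.43 (called in all 8 leave-outs), Cox18 at -0.50 (in 2) and Cox10 at -0.28 (in 1, adjusted p = 0.0497). Cox10 helps make the haem of complex IV. Pet112 was in the list but is no assembly factor of complex IV, so its call does not speak of assembly.

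Of 13 genes of coenzyme Q synthesis, 6 fell and 1 rose, with a median log2 fold change of -0.35. Coq5, a methyltransferase of the pathway, fell by 0.43 and Coq9, a lipid-binding partner of Coq7, by 0.40, called in 4 and 3 of the 8 leave-outs. Adck3, an atypical kinase needed to make coenzyme Q, rose. It had 12.4, 13.6, 13.5 and 14.6 FPKM in libraries labelled Mrp4 knockout, against 8.52, 9.71, 8.94 and 10.4 FPKM in WT libraries, with no overlap. Its log2 fold change was 0.46 ± 0.09 (adjusted p = 0.00983, called in all 8 leave-outs). Of 8 carriers and channels that exchange ATP and phosphate, Slc25a3, the phosphate carrier, fell by 0.31 and Vdac2, a channel of the outer membrane, by 0.33, both called in 2 of the 8 leave-outs, and 6 did not pass. Atpif1, the inhibitor of ATP synthase, had 44.2, 44.0, 43.0 and 42.7 FPKM in libraries labelled Mrp4 knockout, against 32.7, 35.2, 41.8 and 31.4 FPKM in WT libraries. All libraries labelled Mrp4 knockout were above all WT libraries, as for 16.4% of all genes tested, and the log2 fold change of 0.25 did not pass (adjusted p = 0.083).

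Of 12 genes for outer membrane and matrix proteins, 5 fell and 0 rose, with a median log2 fold change of -0.38. Cs, citrate synthase of the citric acid cycle, had 166, 150.04, 155 and 180.0 FPKM in libraries labelled Mrp4 knockout, against 341, 198, 239 and 306 FPKM in WT libraries. The groups did not overlap, and Cs fell by 0.80 ± 0.17 on the log2 scale (adjusted p = 0.0149, called in all 8 leave-outs), beside -0.62 for Uqcrc2 among the members. Phb2, a scaffold of the inner membrane, fell by 0.55 and Tomm40, the import pore of the outer membrane, by 0.45, both called in all 8 leave-outs. Of 11 genes that keep and transcribe mitochondrial DNA, Mterfd2 fell by 0.51 (called in all 8 leave-outs) and Polrmt, the mitochondrial RNA polymerase, by 0.35 (in 1), and 9 did not pass, with a list median of -0.14.

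Of 14 transcription regulators tested, 4 fell and 0 rose, with a median log2 fold change of -0.14. Ppargc1a, a coactivator known to raise the genes of mitochondria, had 0.61, 0.81, 0.55 and 0.65 FPKM in libraries labelled Mrp4 knockout, against 1.7, 1.01, 1.04 and 1.31 FPKM in WT libraries. The groups did not overlap at this low level, and the log2 fold change was -1.02 ± 0.20 (adjusted p = 0.0118, called in all 8 leave-outs). Nrip1, a corepressor known to lower the same genes in fat, averaged 30.6 ± 1.71 FPKM against 45.3 ± 6.34 FPKM in WT libraries. It fell by 0.63 ± 0.10 on the log2 scale (adjusted p = 0.00506, called in all 8 leave-outs). Sp1 fell by 0.25 (called in 3 of 8 leave-outs), and Ppargc1b fell by 1.04 (adjusted p = 0.0481, called in 2 of 8 leave-outs). Nrf1, Gabpa, Yy1 and Esrra, which bind the promoters of these genes, had log2 fold changes of -0.08, -0.04, -0.06 and -0.13 and did not pass.

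Markers of cell types moved with the groups in several lists, given beside the 10.2% of all tested genes that rose and the 8.05% that fell. Of 10 adipocyte markers, Plin1, the coat protein of the lipid droplet, fell by 0.35 (called in 4 of 8 leave-outs) and 9 did not pass. Their median log2 fold change was -0.07, and 6 of the 10 were below 0. The summed level of the 10 was 21337 to 28167 FPKM in libraries labelled Mrp4 knockout against 19129 to 24582 FPKM in WT libraries. The highest markers weigh most in this sum, with a mean of up to 11969 FPKM under the knockout label and 10605 FPKM in WT libraries. Of 10 macrophage markers, 6 rose, with sums of 452 to 614 FPKM against 286 to 359 FPKM in WT libraries. Of 7 endothelial markers, 4 rose, with sums of 380.1 to 396 FPKM against 237 to 336 FPKM in WT libraries. Fibroblast markers gave 3 that rose and 1 that fell of 8, with sums of 1340 to 1570 FPKM against 1453 to 1664 FPKM in WT libraries. Of 6 mesothelial markers, Wt1 fell and 5 did not pass, with sums of 57.1 to 156 FPKM against 156 to 244 FPKM in WT libraries. Of 12 liver transcripts, 11 rose with a median log2 fold change of 4.00, with sums of 2030 to 3332 FPKM against 1799 to 2033 FPKM in WT libraries, and Hp, also made by fat, had the highest level of the list. Alb was at 309.98 to 553 FPKM in libraries labelled Mrp4 knockout and 17.4 to 40.0 FPKM in WT libraries. The part of these markers in the result was not tested.

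Of the defining markers of brown fat and skeletal muscle, cells rich in mitochondria, Ucp1 and Ckm were near 0 in most libraries. Ucp1, the defining gene of brown fat, was at 0 in knockout libraries 1 and 2 and in WT library 3, and reached at most 0.04 FPKM in libraries labelled Mrp4 knockout and 2.25 FPKM in WT library 1. The 7 thermogenic markers summed to 23.5 to 53.1 FPKM in libraries labelled Mrp4 knockout and 21.2 to 56.4 FPKM in WT libraries; Ppargc1a fell, Elovl3 rose and 4 did not pass. Cox8b made up most of this sum. Cox8b and Cox7a1, both among those that did not pass, are members themselves, and Ppargc1a is also one of the regulators above. The list is therefore not separate from the values given before. The muscle creatine kinase Ckm was at most 0.1 FPKM in libraries labelled Mrp4 knockout and 1.16 FPKM in WT libraries. Of 11 skeletal muscle markers, 3 were tested and 0 passed, with sums of 39.5 to 114 FPKM against 13.4 to 77.2 FPKM in WT libraries, mostly Acta1. The 5 epididymis and testis markers in the files summed to 0 to 0.13 FPKM in libraries labelled Mrp4 knockout and 0.18 to 13.5 FPKM in WT libraries.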

How the data were processed

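Total RNA from epididymal white adipose tissue was extracted with Trizol, enriched with poly-T beads and read as pairs of 100 bases on the BGISEQ-500 platform, per the labels' protocols. Bowtie2 and the mouse build mm9 are named per the submitters' processing notes, while the version and the quantifier were not given in the sources used here. For each gene of each library the files deposited by the authors hold an FPKM value, an expected count and a transcript length, per the file headers. A gene not listed in a library was taken as 0, and the deposited FPKM table of the series differed from the library files by at most 0. After rounding, the expected counts of all genes were tested with edgeR 4.0.16 (R 4.3.3): filterByExpr by genotype kept 14257 genes and removed 4434, TMM scaling, robust quasi-likelihood fit, two-sided test, Benjamini-Hochberg adjustment over all tested genes, threshold 0.05. The TMM factors were 1.007 to 1.037 in libraries labelled Mrp4 knockout and 0.959 to 0.992 in WT libraries. The FPKM values are not scaled by them. An edgeR fold change can therefore lie lower than the ratio of FPKM means, as for Abcc4 and Atp5e. Standard errors were taken as the absolute log2 fold change over the root of the F statistic, and intervals are 95%. The fit was also run on simulated counts, and the outcome is not reported here. Those counts were drawn separately for each gene, so the run does not cover subunits that move together by library.

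The members, gene lists and rules were chosen with earlier results of these data known. Values in every library are given for the Sdh genes, Cyc1, Cycs, up to 5 subunits each of complexes III, IV and V with the lowest p, the paired forms of complex IV and the Atp5g copies. From each related list up to 3 genes with the lowest p were named, some with group means or fold changes only, and those that did not pass mostly by count. Atp5e, Atp5k, Ppargc1b, Nrf1, Gabpa, Yy1, Esrra, Ndufa4 and the single cell type markers named were chosen after their values were seen. Alternatives were size factors and test of DESeq2 1.42.0, library size alone, no filter, limma 3.58.1 (voom, and log2(FPKM + 1) and log2(FPKM + 0.1) with trend), the replicate number as a block and each library left out. Strand use is not stated, so reads of overlapping or antisense genes cannot be told apart. Reads carried no molecular identifiers. No 2 libraries were duplicates, with a chi-square per degree of freedom of at least 13.3 between any pair of one group. Promoters were matched by gene number and taken from RefSeq build GRCm38.p6, which is not the build of the files. They were used for sequence only.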

Additional observations from a re-analysis of the deposited data

Results flagged for a closer look

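Among the 94 sets of 4 libraries formed by the 47 members in each group, 2 had 1 library far from the other 3, where chance sets apart about 1 in 20. Sdhd had 76.71 FPKM in knockout library 5, against 65.39 to 66.40 FPKM in the other 3 libraries labelled Mrp4 knockout, a gap of 0.911 of the range. Uqcr10 had 220.73 FPKM in the same library, against 179.72 to 184.02 FPKM in the others, a gap of 0.895 of the range. Sdhd did not pass the test, and Uqcr10 fell at an adjusted p of 0.048 with this library included. Library 5 was the highest of its group for 28 of the 40 subunits.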

How the results depend on the processing

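Against 21 with all libraries, 8 members fell with log2(FPKM + 1) and no filter, and 15 to 25 did in the other settings that kept all libraries and no block. Library size alone moved the median of all genes to 0.07 and the share of higher among differing genes to 74.1%, from 55.9%. With the replicate block, whose contrast rests on the libraries numbered 1, 2 and 4, 0 members fell and 141 genes of all differed, against 2606 without it. Libraries that share the numbers 1, 2 and 4 did not deviate together (r = 0.01, -0.07 and -0.13 across genes), among -0.16 to 0.21 over all pairs of a knockout and a WT library; these values do not settle what the numbers stand for. Leaving out 1 library gave 4 to 33 members that fell, 0 to 2 that rose, and 1172 to 3683 genes that differed. The medians of the complexes kept their sign in every setting run. Against -0.39, -0.38, -0.30 and -0.30 in complexes II to V, they were -0.32, -0.31, -0.23 and -0.23 with library size alone. Without WT library 2 they were -0.45, -0.46, -0.39 and -0.40. Each moved by less than 1 SD between libraries, a wide measure where only 1 library is left out. Single members kept direction and side of the threshold in 351 cases, lost a call in 52, gained one in 4 and changed sign in 7 over the other settings, and in 265, 80, 14 and 9 over the leave-outs. Signs changed for Atp5e with library size alone (0.052), each FPKM test (0.035) and the replicate block (0.018), and its log2 fold change without 1 library was -0.068 to 0.025. Atp5k turned with library size alone (0.0071) and was -0.16 to 0.0054 without 1 library. Cox7a2l was -0.0045 to 0.065 without 1 library. Cox8b turned with the replicate block (-0.32) and was -0.25 to 0.43 without 1 library. The cause was not tested. Cox6b2, at 11 to 18 counts per knockout library and 12 to 36 per WT library, had a 95% interval of -1.42 to 0.28; the parts of counting error and of spread between libraries in it were not tested.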
